A study of Mus musculus with 2 samples.

Results

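The 41 genes described here encode the insulin and insulin-like growth factor receptors and the PI3K, AKT, GSK3, FOXO and mTOR proteins that act behind them. They were taken as a list of symbols, each matched to 1 Ensembl gene of the deposited table of 36227 genes. Messenger RNA was measured in mature mouse eggs, ovulated and arrested at metaphase II, from outbred ICR females. The females of both groups were obese at 12 weeks of age in standard housing and were 16 weeks old at collection. The slimming females had spent the last 4 weeks in cages labelled EE, and their label names slimming induced by an enriched environment. The control females stayed in the normal cage for those 4 weeks and were fed the standard diet, per their label. Each group gave 9 eggs, 3 from each of 3 mice, lysed in 1 tube and sequenced as 1 library. The comparison asks how the mothers' slimming relates to the mRNA of their eggs. Slimming and the EE cage came together, so they cannot be told apart here. With 1 library per group there is no replicate check and no test, and each value describes these 2 libraries.

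Insulin and insulin-like growth factors bind receptor tyrosine kinases, which recruit adaptor proteins and PI3K. PI3K makes a membrane lipid that brings AKT to PDPK1, and AKT then phosphorylates GSK3, FOXO transcription factors and TSC2. TSC1 and TSC2 hold RHEB inactive, RHEB switches on mTOR complex 1, and that complex drives protein synthesis through S6 kinases. In the mouse ovary this route is known for waking dormant oocytes, where FOXO3 holds primordial follicles at rest until PI3K and AKT signalling moves it out of the nucleus. A fully grown egg at metaphase II makes almost no new RNA, so its mRNA is a stored pool.

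The slimming library held 20947962 counts and the control library 20242289 counts. Of 12 markers of the egg, all were detected, and their summed level was 62818 CPM in slimming eggs and 60547 CPM in control eggs (CPM, the count of a gene scaled to the library total). Markers of other cells were low in both libraries. Those of cumulus and granulosa cells summed to 34.8 CPM in slimming and 44.6 CPM in control eggs, nearly all from Cyp19a1 at 34.5 CPM in slimming and 39.2 CPM in control eggs, and 8 of the 15 had no count, among them Fshr, Amh and Foxl2. Immune markers summed to 7.92 CPM in slimming eggs and 15.8 CPM in control eggs, and oviduct markers to 5.20 CPM in slimming and 12.3 CPM in control eggs. Of 5 red blood cell markers in the table, 4 had no count in either library and Slc4a1 had 0 counts in slimming and 1 in control eggs. Because values are relative to the library total, a difference in total RNA per egg cannot be seen here.

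Of the 41 genes, 25 reached 10 CPM in at least 1 library, 8 lay from 1 to 10 CPM in the higher library, 5 had counts but stayed under 1 CPM, and 3 were left blank in both. Differences are log2 ratios of slimming over control on TMM-scaled counts, and a negative value means lower in the slimming library. Their 95% counting intervals cover the sampling of reads only, not differences between mice, between eggs or from amplification. Among the 25 genes, 7 lay 1.5-fold or more below the control library and 0 lay that far above it, where 7.16% of the 5714 genes at that level were lower by that much and 10.3% higher. At 2-fold, 2 were lower (Inpp4a and Ptpn1) and 0 higher, against 1.94% and 2.73% of all genes at that level. The median log2 ratio was -0.26 over the 25 genes and 0.02 over all 5714, and 16 of the 25 were below 0 where 48.6% of all genes were. All 16 of those had counting intervals wholly below 0 (35.1% of all genes), and 4 genes (Pdpk1, Foxo1, Mtor and Rps6kb1) had intervals wholly above it (37.7% of all genes). The 25 genes have long transcripts, with a median of 6266 nucleotides against 3456 over all genes at that level, and with the trend of the ratio over transcript length removed their median was -0.18. In that setting 5 genes were at least 1.5-fold lower, without Pik3ca (-0.49) and Deptor (-0.52). Smaller log2 ratios that moved by over 1.5 times in that setting were those of Foxo1 (0.30), Pik3cb (0.25), Pik3cd (0.18), Ptpn11 (0.15), Tsc1 (-0.18) and Rictor (-0.08). Those of Mtor (0.57), Pdpk1 (0.34), Foxo3 (-0.24) and Ddit4 (-0.89) moved by a smaller proportion.

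The 7 genes at least 1.5-fold lower were Inpp4a, Ptpn1, Gsk3a, Gsk3b, Ddit4, Deptor and Pik3ca. They sit at different steps of the route: receptor inactivation (Ptpn1), production of the PI3K lipid (Pik3ca), removal of its product (Inpp4a), targets of AKT (Gsk3a and Gsk3b) and inhibition of mTOR (Ddit4 and Deptor). A RefSeq promoter window was matched for 37 of the 41 genes. Windows of 6 of the 7 are shown because these genes lay on the same side together, to let their start regions be compared. Each runs from 250 bases before to 50 bases after the annotated start, on the gene's strand, and comes from RefSeq on GRCm38.p6, a later build than the mm9 named for the counts. The windows are chr1:37299588-37299887 (+ strand) for Inpp4a, the most upstream of 3 annotated starts, and chr2:167932077-167932376 (+ strand) for Ptpn1. Those of the kinases are chr7:25237802-25238101 (- strand) for Gsk3a, chr16:38088751-38089050 (+ strand) for Gsk3b and chr3:32396815-32397114 (+ strand) for Pik3ca. That of Ddit4 is chr10:59951721-59952020 (- strand). Capitals mark matches to 5 motifs searched on both strands: a FOXO core (TGTTTAC), an E-box (CACGTG), a cAMP response element (TGACGTCA), a CCAAT box (CCAAT) and a TATA box (TATAAA). None of these strings contains another.
Inpp4a: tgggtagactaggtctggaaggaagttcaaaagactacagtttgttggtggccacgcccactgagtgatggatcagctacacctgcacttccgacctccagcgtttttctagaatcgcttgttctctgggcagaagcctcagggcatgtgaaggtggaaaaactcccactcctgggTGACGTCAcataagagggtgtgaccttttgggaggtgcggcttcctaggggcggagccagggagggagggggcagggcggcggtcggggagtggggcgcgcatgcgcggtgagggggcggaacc
Ptpn1: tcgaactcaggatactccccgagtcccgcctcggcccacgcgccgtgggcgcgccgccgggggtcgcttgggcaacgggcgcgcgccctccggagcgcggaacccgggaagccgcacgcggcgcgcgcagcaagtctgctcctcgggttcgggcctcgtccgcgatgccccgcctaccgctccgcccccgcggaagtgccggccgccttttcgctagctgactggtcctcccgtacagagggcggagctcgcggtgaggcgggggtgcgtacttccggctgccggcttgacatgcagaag
Gsk3a: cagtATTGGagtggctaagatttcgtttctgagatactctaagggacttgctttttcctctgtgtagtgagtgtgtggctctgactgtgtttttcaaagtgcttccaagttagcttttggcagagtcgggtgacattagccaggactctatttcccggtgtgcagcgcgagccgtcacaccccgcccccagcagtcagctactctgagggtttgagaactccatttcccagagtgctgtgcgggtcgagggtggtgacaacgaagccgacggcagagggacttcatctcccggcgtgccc
Gsk3b: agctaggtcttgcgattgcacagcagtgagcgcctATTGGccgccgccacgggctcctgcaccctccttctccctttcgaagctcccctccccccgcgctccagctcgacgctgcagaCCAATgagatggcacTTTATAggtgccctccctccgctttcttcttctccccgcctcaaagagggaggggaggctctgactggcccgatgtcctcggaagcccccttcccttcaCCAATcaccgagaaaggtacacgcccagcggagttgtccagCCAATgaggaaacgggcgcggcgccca
Ddit4: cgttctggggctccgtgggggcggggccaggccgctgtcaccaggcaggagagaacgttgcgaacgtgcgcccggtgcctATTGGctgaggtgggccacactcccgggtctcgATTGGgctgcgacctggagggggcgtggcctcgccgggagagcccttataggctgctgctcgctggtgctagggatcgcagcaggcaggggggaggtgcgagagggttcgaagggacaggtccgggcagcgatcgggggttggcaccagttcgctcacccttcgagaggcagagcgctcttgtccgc
Pik3ca: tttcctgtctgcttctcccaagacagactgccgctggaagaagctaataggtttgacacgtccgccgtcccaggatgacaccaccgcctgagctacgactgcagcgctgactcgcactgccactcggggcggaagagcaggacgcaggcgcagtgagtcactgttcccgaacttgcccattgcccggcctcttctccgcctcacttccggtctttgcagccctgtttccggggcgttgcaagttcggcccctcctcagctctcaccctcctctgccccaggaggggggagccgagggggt

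No motif was found in all 6 windows. The only match in the Inpp4a window was the cAMP response element, which 1.79% of 32851 promoter windows hold. CCAAT boxes, held by 37.4% of windows, were found in those of Gsk3a, Gsk3b and Ddit4, and Gsk3b also had the TATA box (13.6%). The windows of Ptpn1 and Pik3ca matched 0 of the 5 motifs. The FOXO core and the E-box, held by 3.65% and 7.15% of windows, had no match in these 6. The motifs were chosen with the sequences in view, and a match is a run of letters, not a bound site.

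At the receptor end of the route, messages were scarce. Igf1r, the receptor for insulin-like growth factors, had 97 counts (4.63 CPM) in slimming eggs and 193 counts (9.53 CPM) in control eggs, 2.10-fold lower (log2 -1.07, counting interval -1.44 to -0.71). The insulin receptor gene Insr had 56 counts in slimming and 55 in control eggs, a log2 ratio of -0.05 with an interval from -0.62 to 0.51. Among genes from 1 to 10 CPM, 16.5% were lower by 2-fold or more and 16.7% higher, so differences of that size were common at this level. The ligand gene Igf1, which granulosa cells express in the mouse ovary, had 24 counts in slimming eggs and 42 in control eggs. Of the genes for proteins that bind insulin-like growth factors, Igfbp3 had 1 count in slimming and 9 in control eggs, Igfbp2 had 0 in slimming and 2 in control eggs, and Igfbp4 was blank. Of the 15 cumulus and granulosa markers, Inha and Cyp11a1 had 0 counts in slimming eggs, against 63 and 17 in control eggs. Cyp19a1 had 723 counts in slimming and 793 in control eggs, and Has2 had 5 in slimming and 2 in control eggs. Of the 4 markers with at least 10 counts over both libraries, 3 were 2-fold or more lower and 0 higher. The part of granulosa cells in the Igf1 and Igfbp3 values was not tested.

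The insulin receptor substrates, adaptors that carry the signal to PI3K, were nearly undetected. Irs1 had 5 counts in slimming eggs and 0 in control eggs, 1.58-fold higher if the 0 is set to a floor of 3 counts. With an interval that reaches down to a log2 ratio of -0.21, that difference was not distinguishable at this depth. Its exons overlap Gm9747, with 3 counts in slimming and 0 in control eggs. Irs2 was blank in both libraries. Shc1, an adaptor that links receptors to the RAS pathway, had 10.3 CPM in slimming eggs and 12.6 CPM in control eggs, a log2 ratio of -0.33 (-0.60 to -0.07).

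The pair of tyrosine phosphatases at the receptor had unlike ratios. Ptpn1 encodes the enzyme that dephosphorylates the insulin receptor and ends its signal. It had 105 counts (5.01 CPM) in slimming eggs and 312 counts (15.4 CPM) in control eggs, 3.13-fold lower, with a log2 ratio of -1.65 and an interval from -1.99 to -1.33. That ratio stood at rank 27 from the lowest of 5714. Ptpn11, whose product passes growth factor signals on, was nearly equal at 26.6 CPM in slimming eggs and 25.2 CPM in control eggs, with a log2 ratio of 0.05 (-0.13 to 0.22).

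**Figure D1:**
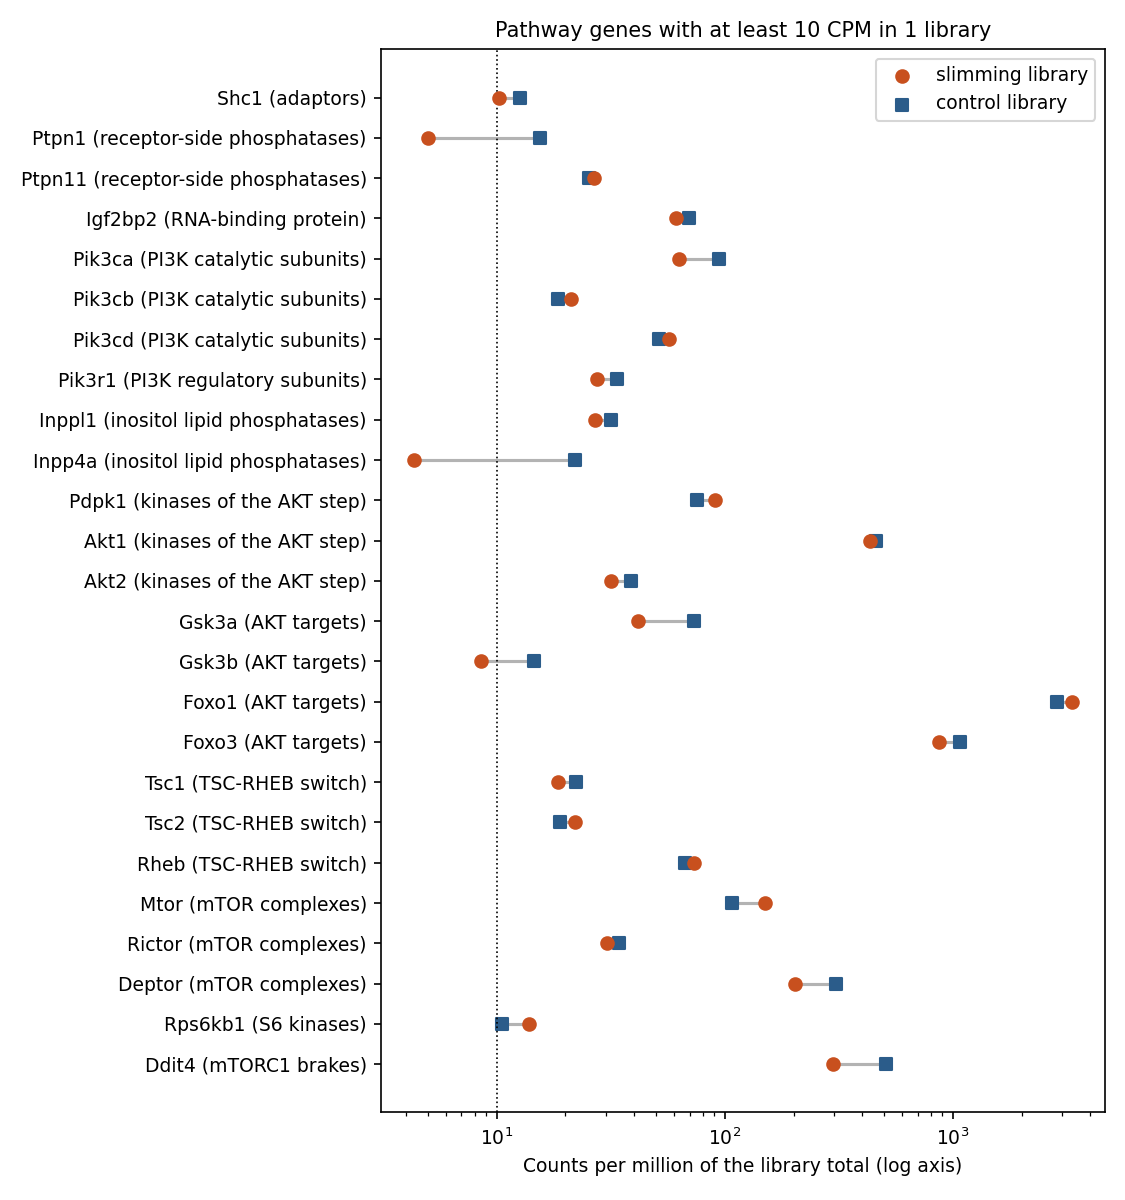
Level of the 25 pathway genes with at least 10 CPM in 1 library, in CPM of the library total on a log axis, with a circle for the slimming and a square for the control library (1 library each, no error bar). Inpp4a, Ptpn1 and Gsk3b are under the dotted line at 10 CPM in the slimming library (4.34, 5.01 and 8.50 CPM) and above it in the control library (22.0, 15.4 and 14.6 CPM).

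Both catalytic and regulatory subunits of PI3K were present, with 1 of the catalytic genes lower. Pik3ca, the subunit used by the insulin receptor in many tissues, had 63.2 CPM in slimming eggs and 94.6 CPM in control eggs, 1.53-fold lower (log2 -0.61, interval -0.71 to -0.51). When libraries were scaled by total count it lay just short of the 1.5-fold line, at -0.58. Pik3cb and Pik3cd, the other class I catalytic genes listed, had log2 ratios of 0.16 (-0.04 to 0.37) and 0.12 (-0.00 to 0.24). Pik3cd, best known from white blood cells, stood at 57.0 CPM in slimming eggs and 51.5 CPM in control eggs. Per kilobase of transcript, Pik3cd had 11.6 CPM in slimming and 10.5 CPM in control eggs and Pik3ca 7.09 CPM in slimming and 10.6 CPM in control eggs. By CPM alone Pik3ca was the higher of the pair in both libraries. Divided by the longest annotated transcript, Pik3cd was the higher in slimming eggs and the pair was nearly equal in control eggs. The summed level of the immune markers given with the depth was lower in slimming eggs. Fcer1g and Tyrobp had 0 counts there, against 62 and 57 in control eggs, while Laptm5 had 86 in slimming and 75 in control eggs. The part of immune cells in the Pik3cd level was not tested. Pik3r1, the regulatory subunit that docks on adaptors, was at 27.6 CPM in slimming and 33.5 CPM in control eggs (log2 -0.31), and Pik3r2 was blank.

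Phosphatases that degrade the products of PI3K held the largest difference of the 25 genes at 10 CPM or more. Inpp4a encodes an enzyme that removes a phosphate from one of these lipids, next in the chain after the action of the Inppl1 product. Inpp4a had 91 counts (4.34 CPM) in slimming eggs and 446 counts (22.0 CPM) in control eggs, 5.16-fold lower, with a log2 ratio of -2.37 and an interval from -2.72 to -2.05. Of the 5714 genes at this level only 7 had a lower ratio. Inppl1 itself differed by less than 1.5-fold, at 26.9 CPM in slimming eggs and 31.5 CPM in control eggs (log2 -0.26, -0.42 to -0.09). Of the 9 listed genes from 10 to 30 CPM in the higher library, 2 were 2-fold or more lower (Inpp4a and Ptpn1) and 0 higher, where 3.72% of all genes in that range were lower and 4.84% higher. At 1.5-fold, 3 of the 9 were lower, with Gsk3b added, and 0 higher, against 10.9% and 14.6%. Of the 16 genes at 30 CPM or more, 0 passed 2-fold in either direction, where 0.804% of all genes were lower and 1.38% higher. At 1.5-fold, 4 of these 16 were lower and 0 higher, against 4.77% and 7.58%.

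Kinases of the AKT step differed by less than 1.5-fold between the libraries. Pdpk1, the kinase that activates AKT, had 90.8 CPM in slimming eggs and 75.4 CPM in control eggs, a log2 ratio of 0.24 (0.14 to 0.33). Akt1 had 432 CPM in slimming and 459 CPM in control eggs (log2 -0.12), and Akt2 had 31.7 CPM in slimming and 38.8 CPM in control eggs (log2 -0.32). Per kilobase of transcript Akt1 was 23.0 times Akt2 in slimming eggs and 20.0 times in control eggs. Phlpp1, a phosphatase that switches AKT off, had 17 counts in slimming eggs and 6 in control eggs, with an interval from 0.01 to 3.05 on the log2 scale.

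Among the targets of AKT, both glycogen synthase kinase 3 genes were lower. These kinases restrain glycogen synthesis and many other routes until AKT phosphorylates them, and in mouse eggs they have been studied for their part in spindle function. Gsk3a had 870 counts (41.5 CPM) in slimming eggs and 1480 counts (73.1 CPM) in control eggs, 1.80-fold lower (log2 -0.85, interval -0.97 to -0.73). Gsk3b had 178 counts (8.50 CPM) in slimming eggs and 296 counts (14.6 CPM) in control eggs, 1.76-fold lower (log2 -0.81, interval -1.09 to -0.54). The interval of Gsk3a lies within that of Gsk3b, and the ratio of Gsk3a to Gsk3b per kilobase was 18.0 in slimming eggs and 18.4 in control eggs.

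The FOXO genes included the most abundant message of the list. Foxo1 had 3323 CPM in slimming eggs and 2865 CPM in control eggs, 1.14-fold higher (log2 0.18, 0.17 to 0.20). Per kilobase its mean over the libraries was above that of 96.9% of the genes at 10 CPM or more. Foxo3 went the other way, with 867 CPM in slimming eggs and 1069 CPM in control eggs, 1.26-fold lower (log2 -0.33, -0.36 to -0.31). Per kilobase Foxo1 was 3.03 times Foxo3 in the slimming library and 2.12 times in the control library. For scale, the quartiles of the log2 ratio over all 5714 genes were -0.24 and 0.29. Foxo4 had 1 count in slimming and 5 in control eggs.

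**Figure D2:**
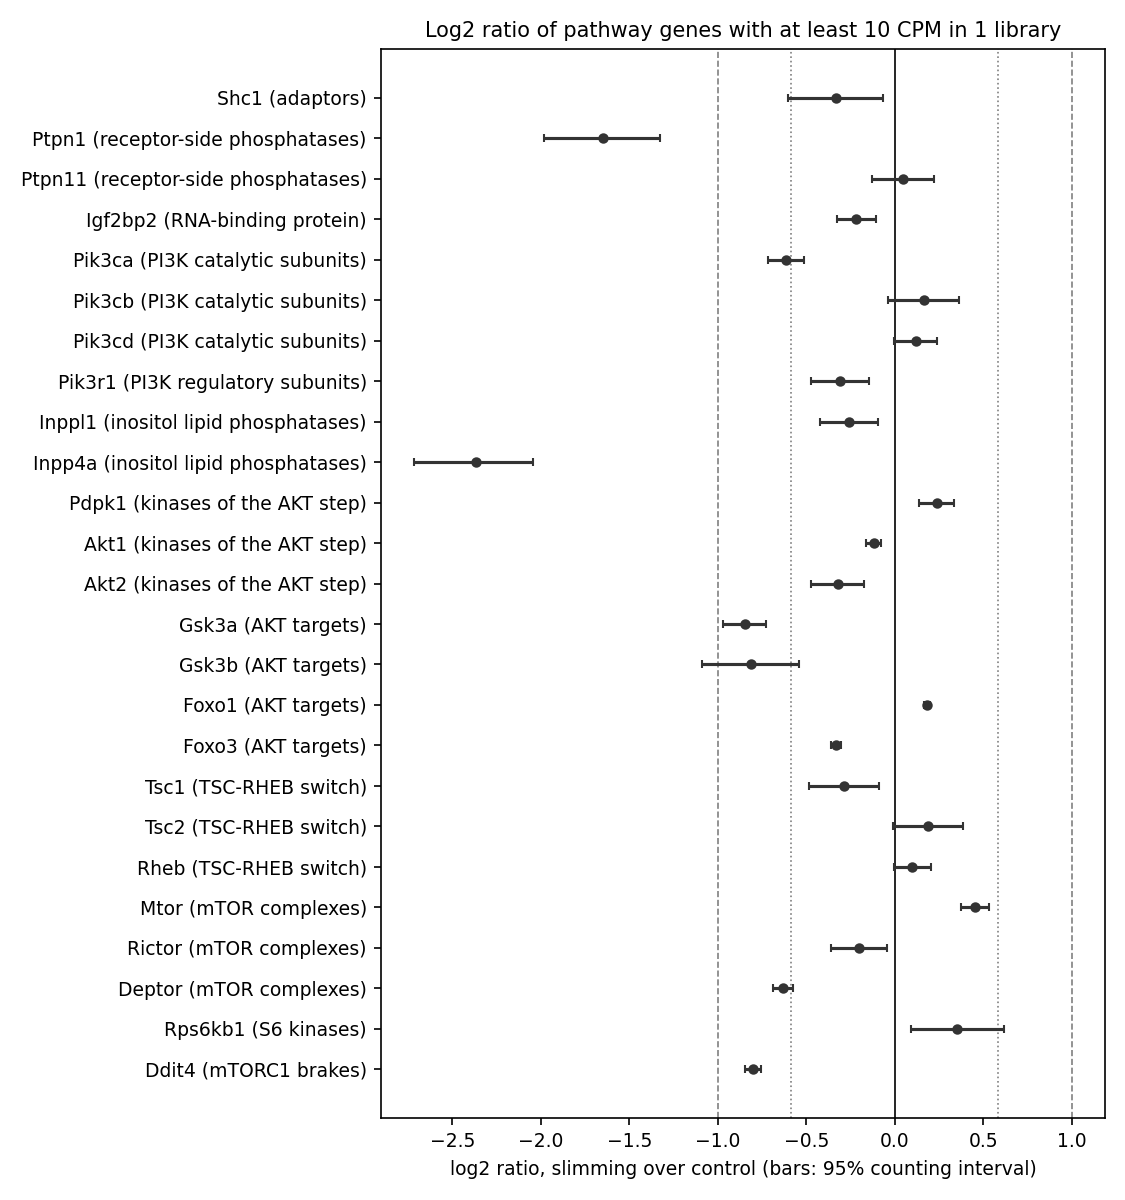
Log2 ratio of slimming over control for the same 25 genes, ordered by role, with 95% counting intervals as bars. Dotted lines mark 1.5-fold and dashed lines 2-fold. Of the 25 points, 7 lie left of the lower dotted line and 0 lie right of the upper one.

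The genes of the switch between AKT and mTOR differed by less than 1.5-fold. Tsc1, which stabilises the complex, had 18.6 CPM in slimming eggs and 22.2 CPM in control eggs (log2 -0.29, -0.49 to -0.09). Tsc2, its catalytic partner, had 22.1 CPM in slimming and 19.0 CPM in control eggs (log2 0.19, -0.01 to 0.39). Rheb, the small GTPase that they hold back, had 73.0 CPM in slimming and 66.7 CPM in control eggs (log2 0.10, -0.01 to 0.21).

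In the mTOR complexes the kinase and its inhibitor stood on opposite sides. Mtor had 151 CPM in slimming eggs and 108 CPM in control eggs, 1.37-fold higher, the highest log2 ratio of the 25 genes at 0.45 (0.37 to 0.53). Deptor, an inhibitor that binds mTOR in both complexes, had 203 CPM in slimming eggs and 308 CPM in control eggs, 1.55-fold lower (log2 -0.63, -0.69 to -0.58). Per kilobase Mtor was 0.741 times Deptor in slimming eggs and 0.350 times in control eggs. Rictor, the scaffold of complex 2, had 30.6 CPM in slimming and 34.4 CPM in control eggs (log2 -0.20). Rptor, the scaffold of complex 1, had only 7 counts in slimming eggs and 36 in control eggs (log2 -2.36, -3.86 to -1.26). Mlst8, a subunit of both complexes, had 85 counts in slimming and 33 in control eggs, 2.41-fold higher (log2 1.27, 0.69 to 1.91), and its opposite-strand neighbour Bricd5 had 25 counts in slimming and 10 in control eggs.

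Brakes on mTOR complex 1 that respond to stress were led by Ddit4, which acts through the TSC complex. It had 6261 counts (299 CPM) in slimming eggs and 10324 counts (510 CPM) in control eggs, 1.74-fold lower, with a log2 ratio of -0.80 and an interval from -0.85 to -0.76. Per kilobase Ddit4 was second to Foxo1 among the 41 genes in both libraries, at 170 CPM in slimming and 291 CPM in control eggs. The sestrins, which sense amino acids and stress, had few counts and ratios of opposite sign. Sesn1 had 17 counts in slimming eggs and 40 in control eggs (log2 -1.29, -2.23 to -0.46), and Sesn2 had 21 counts in slimming and 1 in control eggs, a log2 ratio of 3.76 with an interval from 1.68 to 9.68.

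Downstream of mTOR, Rps6kb1, which phosphorylates the ribosomal protein S6, had 13.8 CPM in slimming eggs and 10.6 CPM in control eggs (log2 0.35, 0.09 to 0.61). Rps6kb2, its relative, had 35 counts in slimming eggs and 1 in control eggs, with a log2 ratio of 4.48 and an interval from 2.48 to 10.4. Exons of Rps6kb2 overlap Coro1b, which had 240 counts in slimming and 198 in control eggs. Those of Rps6kb1, with 289 counts in slimming and 214 in control eggs, overlap Rnft1 on the opposite strand. Rnft1 had more counts, 326 in slimming and 260 in control eggs. Igf2bp2, an RNA-binding protein named for the Igf2 message, had 61.0 CPM in slimming eggs and 69.4 CPM in control eggs (log2 -0.22, -0.33 to -0.11).

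**Figure D3:**
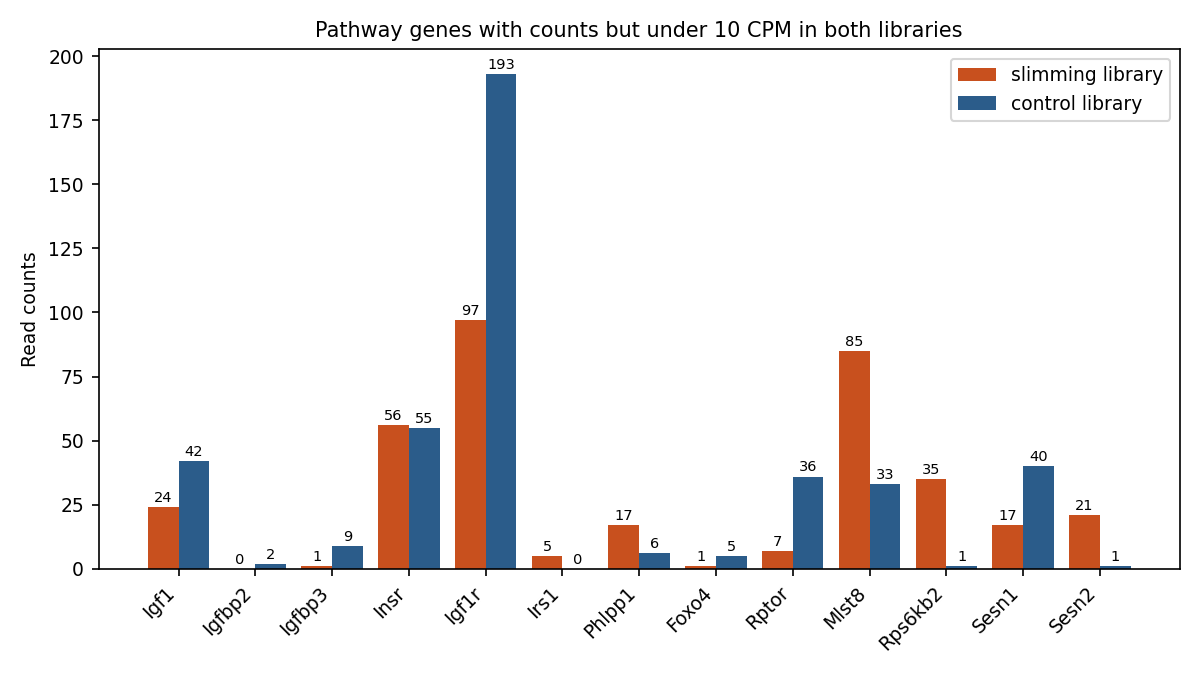
Read counts of the 13 genes with counts but under 10 CPM in both libraries, with the slimming library left of the control library (1 library each). Igf1r reaches 97 counts in slimming and 193 in control eggs, while Rps6kb2 and Sesn2 have 35 and 21 counts in the slimming library and 1 count each in the control library.

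Of the 8 listed genes from 1 to 10 CPM, 3 were higher by 2-fold or more (Mlst8, Rps6kb2 and Sesn2) and 3 lower (Igf1r, Rptor and Sesn1), where 16.7% and 16.5% of all genes of that level were. At 1.5-fold, 3 were higher and 4 lower, with Igf1 added, against 27.4% and 26.5% of all genes. Exons of 6 of the 25 more abundant genes (Inppl1, Gsk3a, Foxo1, Tsc2, Deptor and Rps6kb1) overlap another annotated gene on the opposite strand. The use of strand in counting is not given in the sources used here, so reads of such pairs cannot be told apart. Over the 19 genes without an overlap the median log2 ratio was -0.29, and 5 were at least 1.5-fold lower.

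**Figure D4:**
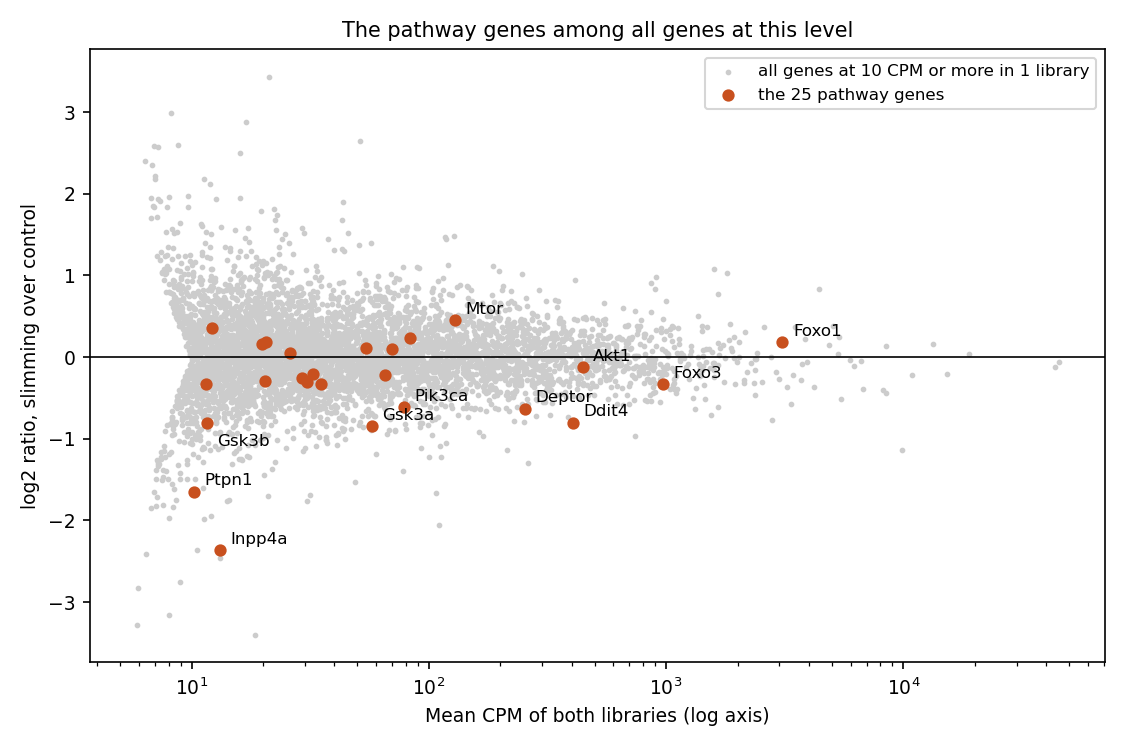
Log2 ratio of slimming over control against the mean CPM of both libraries (log axis) for the 25 pathway genes and all 5714 genes at 10 CPM or more in 1 library, with 1 point per gene. The spread of all genes widens toward low CPM, and Inpp4a and Ptpn1 lie at its lower edge, while Ddit4, Deptor and Gsk3a lie low among more abundant genes.

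The rest of the route was taken from a list of 83 further genes, of which 82 were found in the table. Of these, 35 reached 10 CPM in 1 library, with a median log2 ratio of -0.05. At 1.5-fold, 2 were higher (5.71%) and 1 lower (2.86%), where 10.3% and 7.16% of all genes were. These counts are too few to be set apart from the shares over all genes. Gab1, a docking protein for growth factor receptors, was 3.29-fold higher, with 11.0 CPM in slimming eggs and 3.26 CPM in control eggs (log2 1.72, 1.33 to 2.14), and its exons overlap Gm31105. Wdr24, a subunit of the complex that relays amino acids to mTOR complex 1, was 1.51-fold higher at 60.5 CPM in slimming and 39.1 CPM in control eggs, and the autophagy kinase gene Ulk1 had a log2 ratio of 0.36. Prr5l, which binds mTOR complex 2, was 2.11-fold lower with 26.8 CPM in slimming eggs and 55.4 CPM in control eggs (log2 -1.08, -1.23 to -0.93), and its exons overlap Gm13905. The imprinted genes Grb10, an adaptor that damps insulin signalling, and Igf2, a ligand, were next at -0.45 and -0.44.

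**Figure D5:**
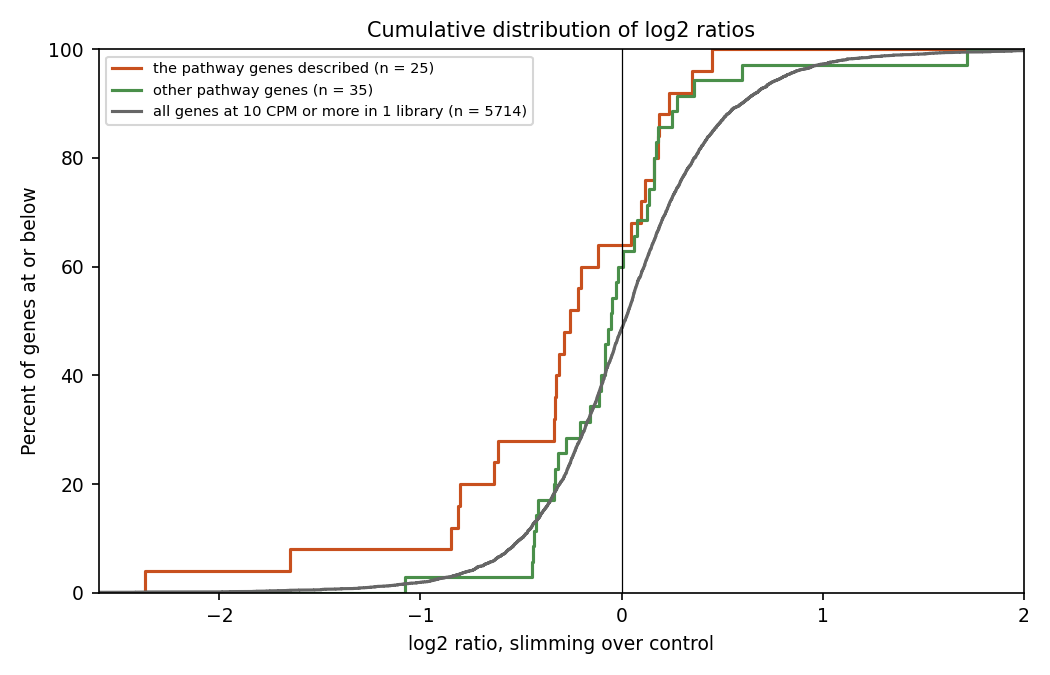
Cumulative share of genes by log2 ratio of slimming over control, for the 25 pathway genes, the 35 further genes of the route and all 5714 genes at 10 CPM or more in 1 library. The line of the 25 genes lies above that of all genes, with 64.0% of them below 0 against 48.6%, and it ends at 0.45 on the right.

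In the authors' deposited table, 12 of the 25 genes were marked at their p-value of 0.001 with a lower and 3 with a higher level in the slimming library. Of all genes at that level the authors marked 24.6% as lower and 32.5% as higher. That p-value rests on the reads of these 2 libraries and does not compare the conditions. The authors' scaled log2 ratio in the deposited table was -2.34 for Inpp4a, -1.62 for Ptpn1 and -0.82 for Gsk3a.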

How the data were processed

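The authors deposited raw read counts per Ensembl gene and library, per the file headers, mapped to mm9 per the submitters' processing notes. The sources used here do not give the aligner, the counter or whether strand was used. Per the labels' protocols, cDNA was primed with an oligo(dT) stretch of 24 bases and amplified for 18 and then 14 cycles. No molecular identifiers are named, so copies are not independent molecules. The authors also deposited log2 ratios, a z-score, a p-value and q-values that set the 2 libraries against each other, per the file headers. The z-score, a score per gene that the authors computed from both libraries, was not used. Their scaled log2 ratio and their mark at a p-value of 0.001 were copied as deposited.

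Of 36227 genes, 18210 were blank in both libraries and read as no count. Symbols, transcript lengths (longest transcript) and exon overlaps came from GENCODE vM21 on GRCm38, a later build; 1104 genes with counts had no symbol. Counts were scaled by TMM (edgeR 4.0.16, R 4.3.3), with a factor of 1.01 for slimming and 0.989 for control eggs, and 0.5 was added to each count before the log2 ratio. CPM use the total count. Values per kilobase divide CPM by the longest annotated transcript, and whether reads scale with that length was not tested. Intervals are exact Clopper-Pearson 95% intervals of the slimming share of the counts, and the floor behind a count of 0 is 3 counts, which is 0.143 CPM for slimming and 0.148 CPM for control eggs. Both cover counting error only. Alternatives were total-count scaling, DESeq2 1.42.0 size factors, other filters, 5 added counts, a lowess length trend (statsmodels 0.14.6) and leaving out overlapping genes. Ratios and intervals were run on simulated counts with independent reads. Such counts hold no amplification error, so they cannot check the intervals for it. The bands at 1, 10 and 30 CPM, the listed genes, the further genes and the rule for naming them (all 41 genes, and of the further genes at 10 CPM or more those at least 2-fold apart and the 3 highest and 3 lowest ratios) were chosen with earlier results of these data known.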

Additional observations from a re-analysis of the deposited data

How the results depend on the processing

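No paired analysis was possible because each group is 1 library, and no replicate could be left out. Under the 8 alternatives the median log2 ratio of the listed genes stayed between -0.29 and -0.18, and the ratio of none of the 25 listed genes at 10 CPM or more changed sign where it was computed. Ratios of the 13 lower genes were not recomputed with the length trend removed or under another scaling. Filters moved the counts most. With every gene that had at least 1 count, 5 listed genes were at least 2-fold higher and 8 lower, and 5 were at least 1.5-fold higher and 14 lower; of the further genes, 14 were at least 1.5-fold higher and 20 lower. At 1 CPM or more in 1 library these numbers were 3 higher and 5 lower at 2-fold, 3 higher and 11 lower at 1.5-fold, and 10 and 10 for the further genes. At a mean of 30 CPM or more 0 of the 15 listed genes left were lower by 2-fold and 4 by 1.5-fold, with 1 further gene higher. Without overlapping genes, 1 further gene was at least 1.5-fold higher and 0 lower. The filters change which genes are counted, not their ratios. Shares over all genes were not computed for these filters, so these counts are not a result about the listed genes. Among all genes from 1 to 10 CPM in the higher library, 27.4% were at least 1.5-fold higher and 26.5% lower. Under total-count scaling 6 genes were at least 1.5-fold lower, and with the length trend removed 5 were; the cause of the length trend was not tested. Depth limits the 13 genes under 10 CPM, with at most 193 counts.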

Other observations

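Further genes of the route at 1 to under 10 CPM in the higher library numbered 26, of which 7 were higher and 7 lower in slimming eggs by 2-fold or more, where 16.7% and 16.5% of all genes at that level were. Igf2r, the receptor that clears Igf2, had 5.44 CPM in slimming eggs and 1.38 CPM in control eggs (3.80-fold higher, log2 1.93, interval 1.34 to 2.60). Lamtor4, a subunit of the lysosomal anchor of mTOR complex 1, had 8.93 CPM in slimming and 3.90 CPM in control eggs, and Depdc5, a subunit of its amino acid brake, had 3.25 CPM in slimming and 1.43 CPM in control eggs. On the lower side, the initiation factor gene Eif4b had 1.62 CPM in slimming eggs and 5.68 CPM in control eggs, Sh2b1, an adaptor of the insulin receptor, had 1.62 CPM in slimming and 4.69 CPM in control eggs, and Eif4ebp2, a translation repressor held off by mTOR, had 3 counts in slimming and 30 in control eggs. These genes were chosen after their values were seen.

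Rps6, which encodes the ribosomal protein phosphorylated by S6 kinases and is used by every cell, had 0 counts in slimming eggs and 1 in control eggs. How reads with several matches in the genome were counted is not given in the sources used here, so a count near 0 does not show that a message was absent.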
